A study of Homo sapiens with 2 samples.

Results

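The RAB genes encode the largest family of Ras-like small GTPases, and 63 of the 46732 genes in the deposited gene table belong to it by the rule used here. A gene was a member if it was annotated as protein-coding and its symbol was RAB followed by a number, with at most 1 letter and 1 further digit. The rule used no measured value, and 19766 genes of the table are protein-coding. The RNA was that of secondary mammospheres, floating spheres grown without attachment, of T47D, an established line of human luminal breast cancer. Spheres grew for 7 days, were passaged, and grew for 7 more. One group is labelled control and the other CIC knockdown, CIC (capicua) being a transcriptional repressor that acts below receptor tyrosine kinases. The labels list 1 library per group although the series text mentions duplicates, and neither the means of knockdown nor the number of clones is stated in the sources used here.

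RAB proteins switch between a GTP-bound form that sits on a membrane and a GDP-bound form held in the cytosol. Guanine nucleotide exchange factors (GEFs) load GTP, GTPase-activating proteins (GAPs) speed its hydrolysis, and GDP dissociation inhibitors (GDIs) carry the GDP-bound form. Each RAB marks particular membranes and recruits effectors such as tethers, motors and coat adaptors there. In epithelial cells RABs guide secretion, endocytosis, recycling and the building of apical surfaces and junctions.

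The control library held 47099221 estimated counts and the knockdown-labelled library 68420805. CIC mRNA itself had 607 and 872 counts, and its ratio of normalised counts, knockdown-labelled over control, was 0.98 (0.882 to 1.09), with a 95% counting interval in brackets as throughout. The label's target, summed over its transcripts, was thus at about equal mRNA levels, and each direction given here is between labels. ETV5 and ETV4, genes that CIC is known to repress, had ratios of 4.97 and 4.69. All 9 luminal epithelial markers looked up, among them KRT8, EPCAM and ESR1, had over 100 counts, and their log2 ratios ran from -0.15 to 0.18. The 5 leukocyte markers summed to 0.0281 TPM (a length-corrected share of all transcripts) in control and 0.207 TPM in the other library, with PTPRC and CD3E at 0 in both. The 4 endothelial markers summed to 0.0740 and 0.155 TPM. The 5 fibroblast markers summed to 4.71 and 2.91 TPM, mostly LUM at 4.44 and 2.44 TPM, with COL1A2 and PDGFRB at 0 in both. COL1A1 went the other way, with 58 and 168 counts and 0.211 and 0.427 TPM. With no replicates, differences have no measure of the variation between cultures, and the intervals cover counting error only. Less RNA per cell cannot be told apart from fewer cells.

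Promoters of the members farthest from equal levels in each direction are shown because CIC is known to bind octamers built around AATG. That of RAB3A, a rare relative of the highest member, is shown because it holds such an octamer. The 8 octamers searched on both strands were TGAATGAA, TGAATGGA, TGAATGAG, TGAATGGG, TCAATGAA, TCAATGGA, TCAATGAG and TCAATGGG, none of which holds another. RefSeq promoter windows (GRCh38.p14, 250 bases before to 50 after a start) were found for 50 of 63 members. An octamer lay in 3 of these 50 windows, or 6.0%, against 6.85% of all 27305 windows and 5.60% of the 15550 of protein-coding genes. The 3 members were RAB3B, RAB3A and RAB40A, while the windows of the other RAB3 genes, RAB3C and RAB3D, held none. The 250 bases before the start are printed 5′ to 3′ on the gene's strand, which is the minus strand for all 4, with an octamer in capitals. They lie at chr1:51990701-51990950 for RAB3B, chr19:18204043-18204292 for RAB3A, chr12:120116754-120117003 for RAB35 and chr3:129121923-129122172 for RAB43. The RAB43 transcripts with counts all start at position 129121804, further into the gene, so the printed window is not directly before their start.
RAB3B: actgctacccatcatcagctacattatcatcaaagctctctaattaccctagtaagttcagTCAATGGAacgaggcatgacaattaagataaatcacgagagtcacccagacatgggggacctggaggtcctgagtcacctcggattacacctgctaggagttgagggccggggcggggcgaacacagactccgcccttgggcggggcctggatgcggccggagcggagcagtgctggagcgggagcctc
RAB3A: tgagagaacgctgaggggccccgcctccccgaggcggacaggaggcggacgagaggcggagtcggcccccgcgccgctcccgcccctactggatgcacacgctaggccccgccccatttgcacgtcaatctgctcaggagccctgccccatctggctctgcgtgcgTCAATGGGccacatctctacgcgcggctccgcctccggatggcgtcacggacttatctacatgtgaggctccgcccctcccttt
RAB35: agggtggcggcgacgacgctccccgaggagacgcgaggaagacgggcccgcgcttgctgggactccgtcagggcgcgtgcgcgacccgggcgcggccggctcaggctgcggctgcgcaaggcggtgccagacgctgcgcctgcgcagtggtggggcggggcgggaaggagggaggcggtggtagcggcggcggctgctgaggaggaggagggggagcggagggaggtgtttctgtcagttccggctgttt
RAB43: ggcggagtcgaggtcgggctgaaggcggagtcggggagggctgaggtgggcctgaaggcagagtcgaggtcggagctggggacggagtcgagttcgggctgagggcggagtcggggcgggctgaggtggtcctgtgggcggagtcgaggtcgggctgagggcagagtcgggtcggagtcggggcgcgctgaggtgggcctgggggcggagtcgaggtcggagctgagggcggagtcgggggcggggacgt

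In RAB3B the octamer TCAATGGA begins 189 bases before the start, and in RAB3A TCAATGGG begins 84 bases before it, both on the gene's strand. The windows of RAB35 and RAB43, the members with the lowest ratios among those with 100 counts, hold none of these octamers. Nor do those of RAB13, RAB23, RAB31, RAB32 and RAB6B, which were higher, or of RAB5C, RAB24, RAB11B and RAB9B, which were lower. No window was found for RAB36 and RAB37, also higher, or for RAB39B, also lower, so these were not searched. In RAB40A TGAATGGG begins 232 bases before the start, on the opposite strand. RAB40A had 5 and 2 counts (control first), with a ratio of 0.273 (0.026 to 1.67), opposite in direction to RAB3B. The intervals of RAB40A and RAB3A both include equal levels. A match describes the letters only. Of the printed bases, G and C made up 56.8% in RAB3B, 68.4% in RAB3A, 74.4% in RAB35 and 73.6% in RAB43. Over whole windows the members' median was 65.0% G and C (31.7% to 82.7%), beside 63.0% for protein-coding genes.

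Together the 63 members summed to 927 TPM in control and 938 TPM in the knockdown-labelled library. The 6 members with the highest mean TPM were RAB11A at 68.9 and 66.3 TPM (control first), RAB10 at 56.5 and 59.8 TPM, RAB1A at 53.7 and 54.5 TPM, RAB1B at 49.1 and 54.6 TPM, RAB2A at 43.9 and 44.3 TPM and RAB5A at 44.3 and 43.1 TPM. RAB11A and RAB10 act in recycling and delivery to the cell surface, RAB1A, RAB1B and RAB2A between endoplasmic reticulum and Golgi, and RAB5A on early endosomes. These abundant RABs differed little between the libraries, with log2 ratios of normalised counts from -0.09 for RAB11A to 0.12 for RAB1B. At the other end, 17 members in control and 13 in the other library lay under 1 TPM.

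**Figure D1:**
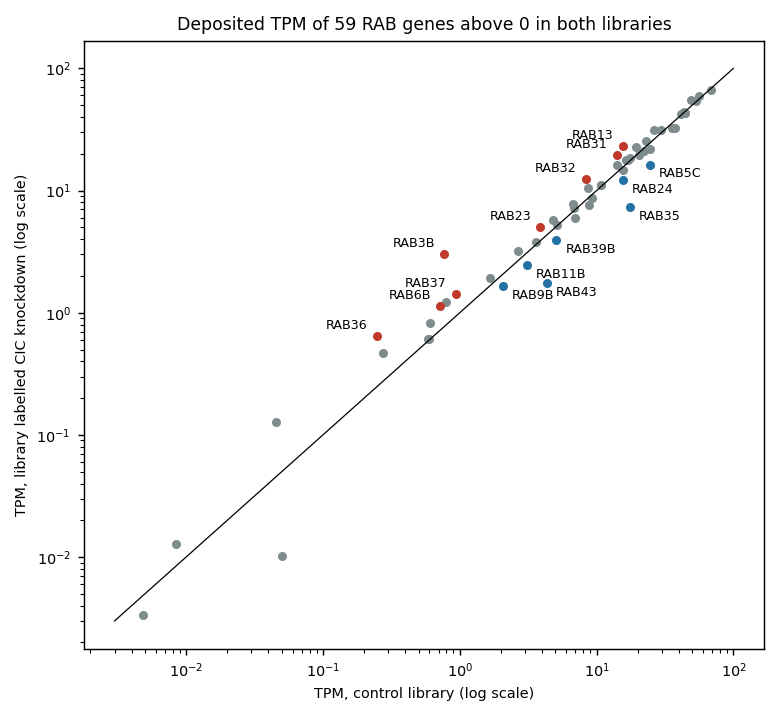
Deposited TPM of the 59 RAB genes above 0 in both libraries, control on the x axis and the library labelled CIC knockdown on the y axis, both on log scales, 1 point per gene. Red and blue points are the 8 members higher and 7 lower by the 25% rule given below, and the line marks equal levels. RAB11A, at 68.9 and 66.3 TPM, lies at the upper end near the line.

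At least 100 counts in 1 library or both were found for 53 members, and the other 10 are described last. A member was counted as higher or lower if it had 100 counts, if its normalised level in one library was at least 25% above that in the other, and if its counting interval lay on that side of 1. By this 25% rule 8 of the 53 members were higher with the knockdown label, or 15.1%, and 7 were lower, or 13.2%. The background was 12.5% higher and 8.54% lower among 12106 protein-coding genes, and 12.3% and 9.54% among all 13722 genes with 100 counts. At 1.5-fold, 3 members were higher and 3 lower, or 5.66% each way, beside 4.15% and 3.09% of protein-coding genes and 4.28% and 3.43% of all genes. The members' shares lay near the background, each somewhat above it. Their median log2 ratio was 0.01, beside 0.03 for protein-coding genes and 0.02 for all genes. Within 1.1-fold of equal levels lay 27 of the 53 members, or 50.9%, beside 46.5% of protein-coding genes. RAB23 at 0.33 and RAB9B at -0.35 just passed the 25% rule, and RAB8B at 0.25 and RAB33B at -0.24 were the nearest that fell short of it. Of 30 members with a mean of at least 10 TPM, 6 passed the rule, and of 23 rarer ones, 9 did. The corresponding shares of protein-coding genes were 11.0% and 29.6%, both below the members' shares, which rest on few genes.

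**Figure D2:**
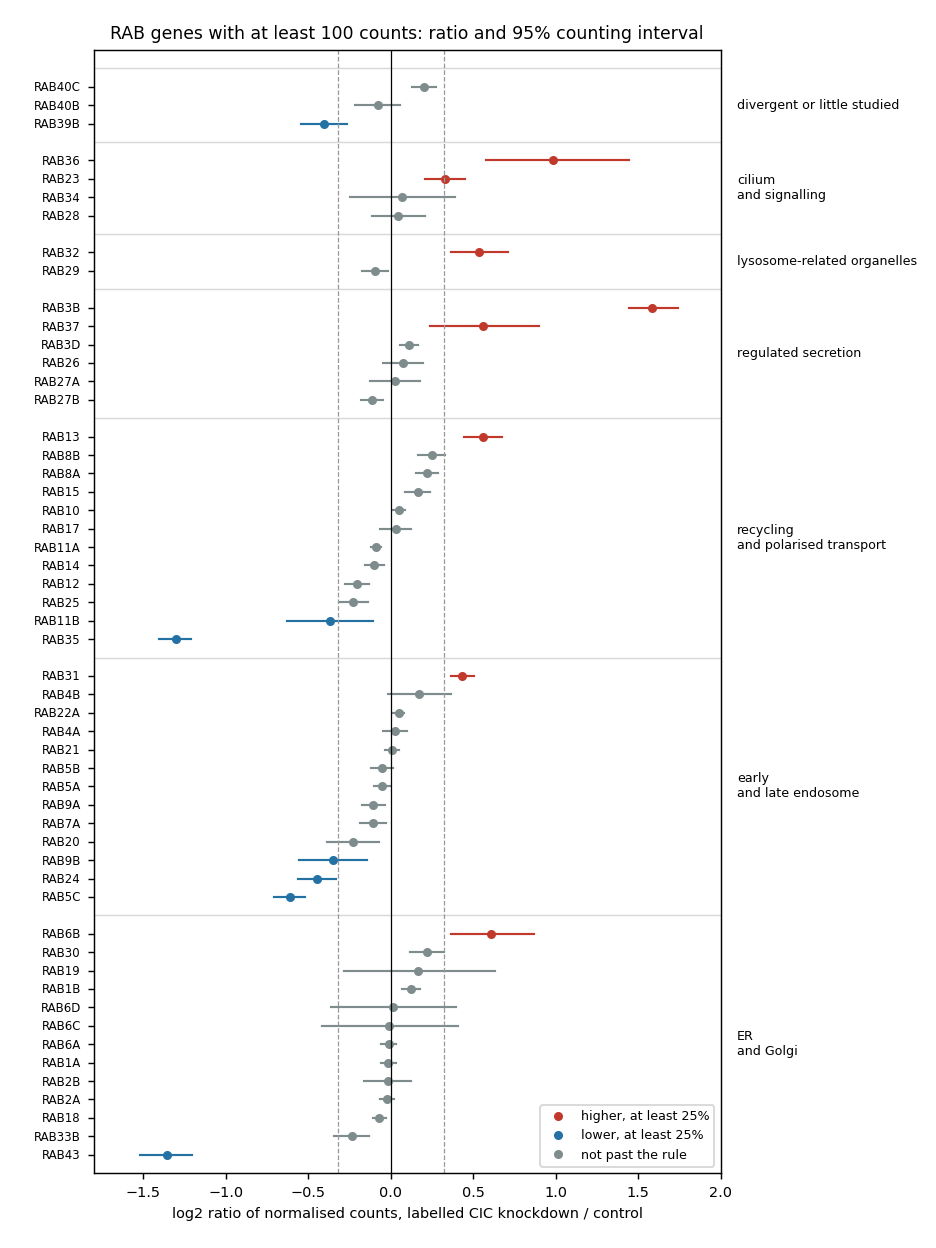
Log2 ratio of normalised counts, library labelled CIC knockdown over control, for the 53 RAB genes with at least 100 counts, grouped by role. Points are ratios, bars 95% counting intervals and dashed lines the 25% limits; RAB3B at 1.59 stands at the right end and RAB43 at -1.36 and RAB35 at -1.30 at the left.

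Among the RABs of regulated secretion, 2 of 6 with 100 counts were higher and 0 lower. Here and in each role group below, the background is 12.5% higher and 8.54% lower among protein-coding genes. The groups are too small for their counts to be told from it. RAB3B, which acts on secretory vesicles docking at the plasma membrane, stood highest of the 53. RAB3B (gene 5865, GRCh38 chromosome 1, 51907956 to 51990700) had 457 and 2017 counts, or 0.771 and 3.01 TPM. Its ratio was 3.01 (2.72 to 3.34). Its paralog RAB3D, the most abundant RAB3 in both libraries, had 4538 and 7178 counts, with a ratio of 1.08 (1.04 to 1.12). Of the summed RAB3 TPM, RAB3B made up 3.15% in control and 10.2% in the other library, and RAB3D 94.3% and 86.9%. RAB37, another RAB of secretory granules, had 113 and 245 counts, with a ratio of 1.48 (1.18 to 1.86). It overlaps an uncharacterised RNA gene, LOC105371893, with 86 and 176 counts. The exocytosis RABs RAB27A and RAB27B had ratios of 1.02 and 0.924, and RAB26, of secretory granules, 1.05.

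The RAB3B counts were divided among 2 transcripts. Here and below, the intervals of transcripts do not cover error in that division. NM_002867, which starts at the promoter printed above, had 457 and 1236 counts, with a ratio of 1.84 (1.66 to 2.06). The predicted transcript XM_017001958, which starts within the gene at position 51977574, had 0 and 781 counts and made up 51.6% of RAB3B TPM in the knockdown-labelled library. Both were higher there.

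Recycling and polarised transport had the highest summed level of the 7 role groups, 311 TPM in each library, with 1 of 12 members higher and 2 lower. RAB13, which serves tight junctions and traffic to the lateral surface, had 870 and 1879 counts, or 15.5 and 23.3 TPM, and a ratio of 1.47 (1.36 to 1.60). RAB35 (gene 11021, chromosome 12, 120095094 to 120117469), which governs rapid recycling from endosomes and apical surface formation, was lower. It had 2314 and 1374 counts, or 17.5 and 7.30 TPM, and a ratio of 0.405 (0.379 to 0.433). Its chief transcript NM_006861 had 2199 and 892 counts, with a ratio of 0.277 (0.256 to 0.299), while NM_001167606 had 88 and 367 counts, with a ratio of 2.84 (2.25 to 3.63). RAB11B had 229 and 260 counts, with a ratio of 0.774 (0.646 to 0.929), and did not pass the rule with halved counts. Its antisense partner RAB11B-AS1, which overlaps it by 332 bases on the opposite strand, had 254 and 284 counts. Whether counting used strand is not stated in the sources used here. RAB25, the epithelial relative of RAB11, stood at 37.4 and 32.7 TPM and a ratio of 0.854 (0.804 to 0.908). RAB8A and RAB8B, which act with RAB10 in surface delivery and ciliogenesis, had ratios of 1.17 (1.11 to 1.22) and 1.19 (1.12 to 1.26), short of the rule. RAB12 and RAB14, of recycling endosomes, had ratios of 0.870 and 0.934, and RAB15 and RAB17 of 1.12 and 1.02.

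Of 13 endosomal RABs with 100 counts, 1 was higher and 3 lower. RAB31, a relative of RAB5 in traffic between Golgi and endosomes, had 2541 and 5033 counts, with a ratio of 1.35 (1.29 to 1.42). RAB5C (gene 5878, chromosome 17, 42124979 to 42154989), an early endosome RAB, had 1905 and 1827 counts, or 24.6 and 16.3 TPM, and a ratio of 0.654 (0.613 to 0.698). Its paralogs stood nearer to equal levels, RAB5A with a ratio of 0.963 (0.931 to 0.997) and RAB5B with 0.965 (0.921 to 1.01). The summed RAB5 level was 86.0 TPM in control and 77.1 TPM in the other library, and RAB5C made up 28.6% and 21.1% of it. Within RAB5C, NM_004583 had 1403 and 1004 counts, with a ratio of 0.488, and NM_201434 had 502 and 821 counts, with a ratio of 1.12.

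RAB24, linked to autophagy, had 1213 and 1304 counts, with a ratio of 0.733 (0.678 to 0.793), with different transcript shares in the libraries. The coding NM_001031677 was higher, with 527 and 1151 counts and a ratio of 1.49 (1.34 to 1.65). It made up 46.1% and 89.4% of RAB24 TPM, and the non-coding NR_109790 27.8% and 3.36%. Lower were NR_109790 at 368 and 51 counts, the non-coding NR_109789 at 230 and 91 and the coding NM_130781 at 88 and 11. RAB9B, the rarer copy of the late endosome RAB, had 359 and 413 counts, with a ratio of 0.785 (0.679 to 0.906), and did not pass the rule in TPM, while RAB9A had 2776 and 3785 counts, with a ratio of 0.930. RAB7A, the RAB of late endosomes and lysosomes, stood at 20.4 and 19.4 TPM, and RAB4A, of rapid recycling, at 17.5 and 18.3 TPM. RAB21 and RAB22A, relatives of RAB5 on endosomes, had ratios of 1.01 and 1.04, and RAB20, a RAB of phagosomes, of 0.853. RAB4B had 363 and 601 counts, with a ratio of 1.13 (0.990 to 1.29). The readthrough gene RAB4B-EGLN2, which joins RAB4B to its neighbour, had 1 and 190 counts, and the sum of both genes had a ratio of 1.48 (1.31 to 1.68).

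In the group of the endoplasmic reticulum and Golgi, 1 of 13 members was higher, 1 lower, and 7 intervals overlapped equal levels. Of all 53 members, 17 intervals did. Of protein-coding genes with 100 counts, 36.1% had an interval above equal levels and 27.3% below. RAB6B, the form of the Golgi RAB6 best known from neurons, had 188 and 422 counts, with a ratio of 1.53 (1.29 to 1.83), at only 0.723 and 1.14 TPM. It overlaps SRPRB on the opposite strand, which had 3988 and 5901 counts. RAB6A, at 41.7 and 42.4 TPM, held 95.6% and 94.8% of the summed RAB6 level. RAB6C and RAB6D are near-identical copies of RAB6A, so their 85 and 124 counts and 100 and 148 counts are uncertain. RAB43 (gene 339122, chromosome 3, 129087569 to 129122150), which acts at the Golgi, had the lowest ratio of the 53. It had 896 and 512 counts, or 4.32 and 1.75 TPM, and a ratio of 0.390 (0.349 to 0.435).

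By transcript, NM_198490 had 571 and 216 counts, NM_001204888 314 and 153 counts and NM_001204886 11 and 140 counts. The first and second were lower and the last higher. RAB43 shares its locus with the readthrough gene ISY1-RAB43, which had 879 and 1038 counts, and the sum of both genes had a ratio of 0.596 (0.556 to 0.638). RAB43 thus stayed lower with its readthrough added, by a smaller amount. The pseudogene RAB43P1, which may share reads with RAB43, had 709 and 1235 counts. RAB18, also of lipid droplets, had a ratio of 0.954, RAB2B of 0.987, RAB19 of 1.13, RAB30 of 1.17 and RAB33B, which takes part in autophagosome formation, of 0.849.

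RAB32 and RAB29 were the RABs of lysosome-related organelles with 100 counts. RAB32, which also binds mitochondria, had 411 and 874 counts, or 8.33 and 12.4 TPM, and a ratio of 1.45 (1.29 to 1.63). RAB29, an activator of the kinase LRRK2, had a ratio of 0.937 (0.888 to 0.989). In the cilium and signalling group, 2 of 4 were higher, beside the same 12.5% of protein-coding genes. RAB23, a negative regulator of Hedgehog signalling, had 864 and 1590 counts, with a ratio of 1.26 (1.15 to 1.37), and overlaps BAG2 on the opposite strand, with 438 and 575 counts. RAB36 had 62 and 182 counts, with a ratio of 2.0 (1.49 to 2.72), at only 0.248 and 0.646 TPM. RAB34, of primary cilia, and RAB28 had ratios of 1.05 and 1.03. Of the 3 divergent members with 100 counts, RAB39B, a neuronal RAB, was lower at 804 and 890 counts and a ratio of 0.755 (0.686 to 0.832). RAB40C and RAB40B, whose proteins carry a box that recruits ubiquitin ligases, had ratios of 1.15 and 0.946.

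Counts were also divided differently among transcripts. Of 40 members with 100 counts and at least 2 transcripts, 12 had 20% or more of their TPM on different transcripts in the 2 libraries, or 30.0%, beside 44.5% of 10219 such protein-coding genes. Of these 12, RAB36, RAB3B, RAB24, RAB35 and RAB43 also passed the 25% rule. The share of protein-coding genes that met both was not computed. RAB36 had 98.6% moved, with NM_001349877 at 53 and 0 counts and NM_004914 at 1 and 173 counts. RAB34 had 71.6% moved, RAB19 68.0%, RAB26 53.0%, RAB3B 51.6%, RAB27A 44.9%, RAB24 43.3% and RAB40B 41.5%. Some of these shares rest on few counts, with 137 and 211 for the RAB34 gene and 66 and 109 for RAB19. RAB26 had 900 and 1388 counts, RAB27A 603 and 900 and RAB40B 743 and 1031. RAB29 had 31.0% (2293 and 3150 counts), RAB35 30.5%, RAB43 27.8% and RAB2B 22.9% (690 and 999 counts). In RAB26, NM_014353 made up 58.0% and 4.96% of the gene's TPM, although the gene's ratio was 1.05. CIC itself, which is not a member, had 48.1% moved. Without these 12 members, 6 were higher and 4 lower by the 25% rule, an alternative chosen after seeing the data. The background was not recomputed with such genes left out, so these counts cannot be set against it. The part of the division in the genes' ratios was not tested.

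**Figure D3:**
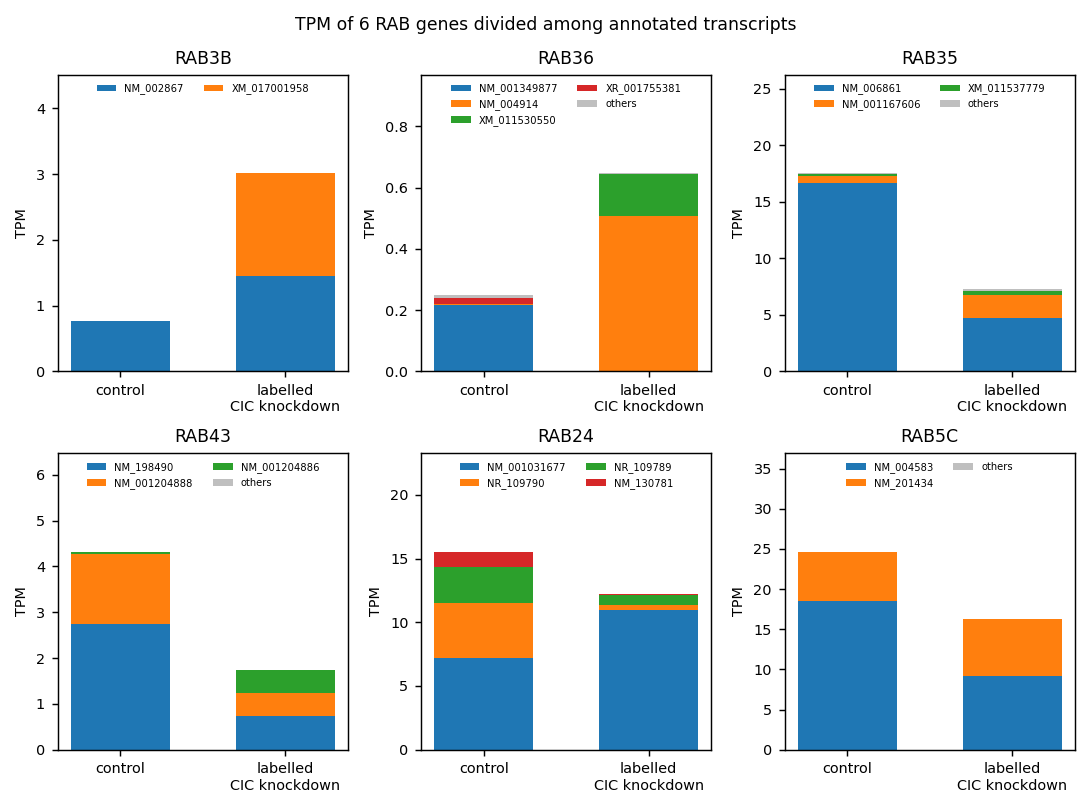
Stacked bars of deposited TPM for RAB3B, RAB36, RAB35, RAB43, RAB24 and RAB5C in each library, divided by annotated transcript (those under 5% of the gene in both libraries are grouped as others). Both RAB3B transcripts are higher with the knockdown label, whereas in RAB35 NM_006861 is lower and NM_001167606 higher.

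The deposited list of assembled splice variants holds 6 variants of RAB genes, 1 each for RAB9A, RAB17, RAB21, RAB26, RAB29 and RAB33B. That of RAB9A had 545 and 1227 counts, with a ratio of 1.55 (1.40 to 1.72), while the RAB9A gene had a ratio of 0.930. With assembled transcripts the RAB9A gene had 2794 and 3807 counts, beside 2776 and 3785 without them, so its total hardly changed. That of RAB33B had 19 and 176 counts, with a ratio of 6.38 (3.97 to 10.8). The RAB33B gene had 1294 and 1615 counts with assembled transcripts, beside 1288 and 1604 without them. The RAB17 variant, 8277 bases long, had 3816 and 4578 counts, with a ratio of 0.826 (0.791 to 0.863). With it RAB17, a RAB of polarised epithelia, had 4662 and 5808 counts and a log2 ratio of -0.22, against 0.03 from annotated transcripts alone.

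Among 52 GEFs, 49 had 100 counts, 2 of them higher and 6 lower by the 25% rule, with a median log2 ratio of -0.01. For this and the lists that follow, the background is the 12.5% higher and 8.54% lower of protein-coding genes, with a median of 0.03. DENND2C, a GEF for RAB9, had 733 and 697 counts and a log2 ratio of -0.62. TRAPPC3, a core subunit of the TRAPP complexes that activate RAB1, had 2158 and 2109 counts and -0.58. MON1A, of the complex that loads RAB7, was higher at 126 and 283 counts and 0.61. The RAB5 exchange factor RIN1 stood at -0.38 (465 and 522 counts). Of 39 GAPs with 100 counts, 3 were higher and 2 lower, and the median was 0.01. TBC1D16, a GAP for RAB4A, had 1270 and 3170 counts and a log2 ratio of 0.77. SGSM1 stood at 0.69 (79 and 188 counts), TBC1D4, a GAP for RAB8A and RAB10, at 0.50 (750 and 1557 counts) and SGSM2, a GAP for RAB32, at -0.44 (6326 and 6818 counts). In the table with assembled transcripts SGSM2 stood at -0.18, and 0 GAPs were lower by the rule.

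None of the 8 genes with 100 counts that attach the lipid anchor of RABs or handle prenylated RABs passed the rule, and their log2 ratios ran from -0.09 to 0.20. The dissociation inhibitor GDI2 stood at 194 and 195 TPM. The farthest from equal levels were CHML, an escort protein, at 0.20, RABGGTA, a subunit of the prenyl transferase, at 0.15, RABAC1, an acceptor of prenylated RABs, at 0.11 and ARL6IP5 at -0.09. Of 52 effectors with 100 counts, 5 were higher and 4 lower, and their median was 0.03. In TPM and in FPKM, 1 effector was lower. SH3TC2, an effector of RAB11, had 219 and 184 counts and a log2 ratio of -0.80, or -0.44 in TPM. RILP, which links RAB7 to dynein, stood at 0.55 (111 and 239 counts), EXPH5, which binds RAB27, at 0.40 and EHBP1L1, an effector of RAB8, at 0.39.

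Of 3 genes for enzymes that phosphorylate RABs or undo it, LRRK1 stood at 0.55 (91 and 196 counts) and the phosphatase PPM1H at 0.15, and LRRK2 had 0 counts in both libraries. LRRK1 passed the rule in counts but not in TPM, where it stood at 0.12, or in FPKM, where it stood at 0.10. Among 9 RAB-like genes outside the rule with 100 counts, 3 were higher and 0 lower, beside the same 12.5% and 8.54% of protein-coding genes. IFT22, a subunit of the ciliary transport complex, had 824 and 2253 counts and a log2 ratio of 0.90, or 0.40 in the table that adds assembled transcripts. RABL2B and RABL2A, near-identical genes that may exchange reads, stood at 0.44 and 0.41, and IFT27 at 0.23. RABL2A was lower, at -0.53, in the table with assembled transcripts.

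**Figure D4:**
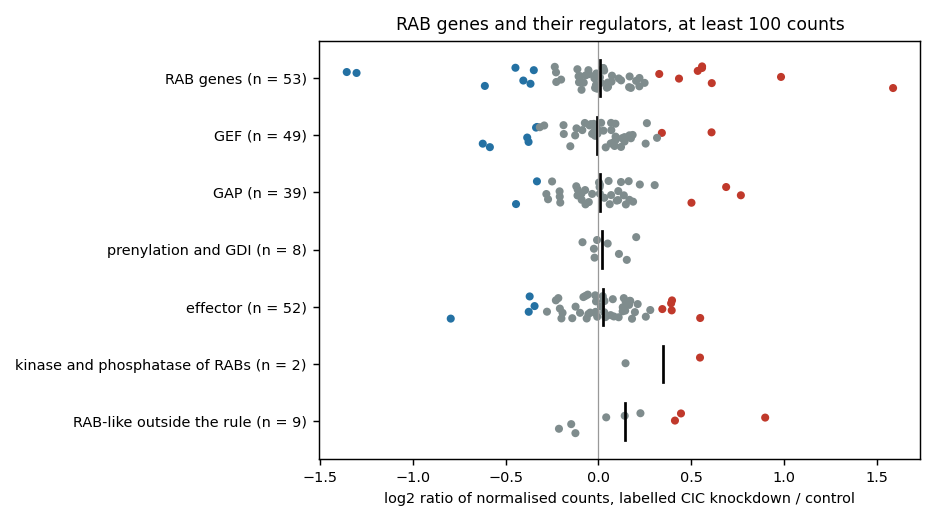
Log2 ratio of normalised counts, library labelled CIC knockdown over control, for the RAB genes and 6 lists of related genes with at least 100 counts, 1 point per gene and a black bar at each median. Red and blue mark genes past the 25% rule; the 8 genes of prenylation and GDI keep within -0.09 to 0.20.

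For the 10 members below 100 counts in both libraries the depth allows little. RAB7B had 0 and 19 counts, and the counting interval of its ratio began at 3.18. RAB38 had 7 and 0 counts, and its interval ended at 0.473. RAB39A had 24 and 59 counts, with a ratio of 1.68 (1.03 to 2.82), and RAB3A, a RAB of synaptic vesicles, had 43 and 83 counts, with a ratio of 1.32 (0.900 to 1.95). RAB33A had 3 and 8 counts, RAB40A 5 and 2 counts, RAB3C 3 and 3 counts and RAB44 2 and 4 counts. RAB41 and RAB42 had 0 counts in both libraries.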

How the data were processed

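RNA was measured in 2 libraries, 1 per group, made from total RNA with a strand-specific kit, per the labels' protocols. Trimmomatic, HISAT2 and StringTie, and hg38 (GRCh38), are listed in the submitters' processing notes, with no version. For each gene and transcript the authors deposited an estimated count, named a read count in the file headers and divided among a gene's transcripts. FPKM (scaled by transcript length and library) and TPM (scaled to one sum per library) were also deposited by the authors, per the file headers. Columns prefixed C were read as control, since the other prefix is KD.

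Library totals were scaled by TMM (edgeR 4.0.16, R 4.3.3) over all genes. Log2 ratios used a prior count of 2 (of TPM and FPKM, a pseudocount of 0.1, which understates changes at low levels), and ratios have exact Clopper-Pearson 95% intervals given the summed counts, which cover counting error only, since reads copied by PCR are not independent. With 1 library per group no test was made. The calculation was run on simulated counts that held counting error only. That checks the arithmetic, and not variation between cultures, copied reads or the division among transcripts. Given in full were the members past the 25% rule, the 6 most abundant, those with 20% of their TPM moved between transcripts, and the 4 genes of each list farthest from equal levels. The other members are given by role group, and the overlapping genes and assembled variants were named after their values were seen. Members and lists were chosen with earlier results of these data known. Alternatives were the scaling (DESeq2 1.42.0 size factors or totals), unit, prior count, count minimum, gene table and halved counts, the last because both mates may have been counted. The list of assembled transcripts outside known genes and the transcript table with assembled transcripts were not used here.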

Additional observations from a re-analysis of the deposited data

How the results depend on the processing

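No replicate could be left out, and no paired analysis was possible because each group has 1 library. All 15 members past the 25% rule passed it again under size factors, total counts, FPKM and both other prior counts. FPKM and TPM replaced the ratio but kept the interval from counts. With assembled transcripts the 15 passed too, but their counts were the same and only the scaling differed. Lower count minimums could add members but not remove any. RAB9B no longer passed in TPM (log2 ratio -0.31), nor RAB11B with halved counts (-0.36). A count minimum of 50 added RAB39A, and no minimum added RAB38, RAB39A and RAB7B, so that 5 members were higher by 1.5-fold in place of 3. The next alternatives were chosen after seeing the data. Without members that had 20% or more of their TPM moved between transcripts, 4 were lower by the 25% rule in place of 7, and 1 was higher and 1 lower by 1.5-fold in place of 3 each. The background was not recomputed with such genes left out. With readthrough counts added, RAB43 moved to a log2 ratio of -0.75 and RAB4B joined the higher members. In the lists, 2 GAPs were lower by the 25% rule, but 0 in the table with assembled transcripts, where SGSM2 stood at -0.18, and 1 with total counts only. In TPM and in FPKM, 1 effector was lower in place of 4, and 0 kinases or phosphatases were higher in place of 1 (LRRK1 at 0.12 and 0.10). RABL2A turned to -0.53 with assembled transcripts, where 1 RAB-like gene was lower in place of 0. The causes were not tested.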
